A study of Mus musculus with 16 samples.

Results

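mmu-miR-142-3p and mmu-miR-142-5p, called miR-142-3p and miR-142-5p below, are the 2 mature microRNAs (miRNAs) cut from the 2 arms of one hairpin, and both were chosen by name as the members described here, out of 604 mouse miRNAs that were measured on both array designs of the study. RNA from 8 sorted mouse cell populations was labelled with the dye Cy3 (100 ng of total RNA per array) and hybridised to Agilent miRNA arrays, with 1 population per array and 2 biological replicates of each population, 16 arrays in all. The first replicates were all run on one array design and the second replicates on the other (designs 1 and 2), each on its own slide, so replicate, design and slide are a single split of the arrays. The cells came straight from female C57Bl/6 mice, 6 weeks old, for which the labels name no genetic change and no treatment, and every replicate is a pool of animals.

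The bone marrow was that of femur and tibia, and total RNA was extracted with the miRNeasy kit. The 5 differentiated populations were CD4+ DC, CD8+ DC and CD4-CD8- DC from spleen (DC, dendritic cells, each a pool of 8 mice), and PDC (plasmacytoid dendritic cells in the usual reading) and Gr1+ monocytes from bone marrow (pools of 5 mice). The spleen DC were CD11c+ and CD3-, the CD8+ DC were also gated as CD86+, and the B220- gate is listed for CD4+ DC and CD8+ DC but not for CD4-CD8- DC. PDC were B220+, SiglecH+, CD317+ and intermediate for CD11c, and the monocytes were CD11b+, CD115+ and Gr1+. The 3 progenitor populations were CDP, MDP and MP from bone marrow (pools of 15 mice), all negative for the lineage markers and Sca-1 and positive for CD135. CDP were CD115+ with low CD117, MDP were CD115+ CD117+, and MP were CD115- CD117+. CDP and MDP usually stand for common dendritic cell progenitor and macrophage and dendritic cell progenitor, and the labels do not spell out MP. The arrays carry no messenger RNA, so the sorting markers could not be checked on them. The miRNA marker of myeloid cells, miR-223, was detected on all 16 arrays.

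A miRNA gene is transcribed as a longer precursor that folds into a hairpin, and the enzymes Drosha and Dicer cut a short duplex from its stem. Either strand of that duplex can be loaded into an Argonaute protein, and bases 2 to 8 of the loaded strand, the seed, pair with target messenger RNAs to lower their output. miR-142 is known as a miRNA of blood cells, found through most of the haematopoietic lineages, and mice that lack it have defects in dendritic cells and lymphocytes. The arms have different seeds and so pair with different sites, and each cut hairpin gives 1 copy of both.

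RefSeq (build GRCm38.p6) places the Mir142 hairpin on the plus strand at chr11:87756864-87756927. It is 64 bases long and is shown because it joins both members, with the 5p arm and then the 3p arm in capitals.
Mir142 hairpin: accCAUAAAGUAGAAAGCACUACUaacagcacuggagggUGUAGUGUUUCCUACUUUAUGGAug
The 5p arm occupies bases 4 to 24 and the 3p arm bases 40 to 62, with 15 bases between them. A minimum free energy fold of these 64 bases paired 19 of the 21 bases of the 5p arm with the 3p arm.

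The mature arms follow with the seed in capitals, because the seeds are not the same. RefSeq names them miR-142a-3p (chr11:87756903-87756925) and miR-142a-5p (chr11:87756867-87756887), and the array uses the older names without the letter a.
mmu-miR-142a-3p: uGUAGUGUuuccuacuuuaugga
mmu-miR-142a-5p: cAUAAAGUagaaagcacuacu
Among the 1679 mature mouse miRNA names in the RefSeq table, 0 others carry the 3p seed and 0 others carry the 5p seed. The opposite strand of the same locus is annotated with another miRNA, miR-142b (chr11:87756906-87756925, minus strand), whose 20 bases are the reverse complement of the end of the 3p arm.
mmu-miR-142b: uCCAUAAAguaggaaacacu
miR-142b has no probe on either design.

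Each arm was read by a pair of probes with 10 spots each, 20 spots per array, and the probes had the same sequence on both designs. They are shown because they fix which bases of each arm were measured; capitals mark the probe bases that lie opposite the seed.
miR-142-3p longer probe: tccataaagtaggaaACACTACa
miR-142-3p shorter probe: tccataaagtaggaaACACTAC
miR-142-5p longer probe: agtagtgctttctACTTTA
miR-142-5p shorter probe: agtagtgctttctACTTT
The longer 3p probe is complementary to bases 1 to 23 of the mature arm and the shorter one to bases 2 to 23. The 5p probes are complementary to bases 3 to 21 and 4 to 21, so they cover 6 and 5 of the 7 seed bases, and the first bases of the 5p arm were not read. The 3p probes begin with the same 20 bases as miR-142b and therefore have its sense, not its complement. The array files place them at chr11:87570406-87570427 and chr11:87570407-87570427 for 3p, and at chr11:87570372-87570389 and chr11:87570373-87570389 for 5p, in build mm9, which is not the build of the RefSeq positions.

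Both arms were measured well above the array background in every population. miR-142-3p had between 642 and 4580 units of processed signal on the 10 arrays of differentiated cells, against 326 to 948 on the 6 arrays of progenitors. miR-142-5p was dimmer to the scanner, with 81.2 to 544 units on the differentiated arrays, against 28.6 to 80.4 on the progenitor arrays. At least 19 of the 20 spots of each arm were well above background on every array, and no spot was saturated. The difference in brightness between the arms cannot be read as abundance, because the probes differ in length and base content and were not calibrated to each other. Spots of 1 probe on 1 array varied with a median coefficient of variation of 8.41% for 3p and 10.4% for 5p.

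Levels below are log2 values of the processed signal relative to a reference signal of the same array, the 75th percentile among 88 miRNAs that every array detected, so a level of 0 means a signal equal to it. The value on design 1 stands before that on design 2. RNA amounts are those of a sorted bulk sample, in which fewer cells that make a miRNA and less of it per cell cannot be told apart. Both arms read higher on design 1 in every population, by 0.50 to 1.20 for 3p and 0.33 to 1.01 for 5p, and the design was taken out as a block in all fits. The SD over the 2 replicates that is printed beside each mean includes that offset.

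miR-142-3p, the arm that silences through the seed GUAGUGU, stood at 2.57 and 1.61 in CD4+ DC, 2.39 and 1.20 in CD8+ DC, and 2.40 and 1.21 in CD4-CD8- DC. It stood at 1.51 and 0.76 in PDC and at 1.5 and 0.42 in Gr1+ monocytes. In the progenitors it stood at 0.90 and 0.01 in CDP, 0.47 and -0.03 in MDP, and 0.48 and -0.03 in MP. On each design the 3 spleen DC arrays were the highest, PDC and monocytes came next and the 3 progenitors were lowest, with no overlap between these 3 tiers. The tiers are those of this scaling. Scaled over all miRNAs, CD8+ DC minus the other 2 spleen DC was -0.90 for 3p, and PDC minus the mean of the 3 spleen DC was -0.57. Means were 2.09 ± 0.68 in CD4+ DC, 1.81 ± 0.84 in CD4-CD8- DC, 1.80 ± 0.85 in CD8+ DC, 1.13 ± 0.53 in PDC, 0.96 ± 0.76 in Gr1+ monocytes, 0.46 ± 0.63 in CDP, 0.22 ± 0.36 in MP and 0.22 ± 0.36 in MDP (SD, n = 2 each).

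miR-142-5p, which silences through the seed AUAAAGU, stood at -0.50 and -1.45 in CD4+ DC, -0.77 and -1.54 in CD8+ DC, and -0.82 and -1.83 in CD4-CD8- DC. It stood at -1.71 and -2.04 in PDC and at -1.80 and -2.56 in Gr1+ monocytes. In the progenitors it stood at -2.66 and -3.61 in CDP, -3.05 and -3.54 in MDP, and -2.94 and -3.40 in MP. The same 3 tiers were separated on each design with this scaling. Means were -0.98 ± 0.67 in CD4+ DC, -1.16 ± 0.54 in CD8+ DC, -1.32 ± 0.71 in CD4-CD8- DC, -1.88 ± 0.23 in PDC, -2.18 ± 0.54 in Gr1+ monocytes, -3.13 ± 0.67 in CDP, -3.17 ± 0.33 in MP and -3.30 ± 0.35 in MDP (SD, n = 2 each).

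**Figure D1:**
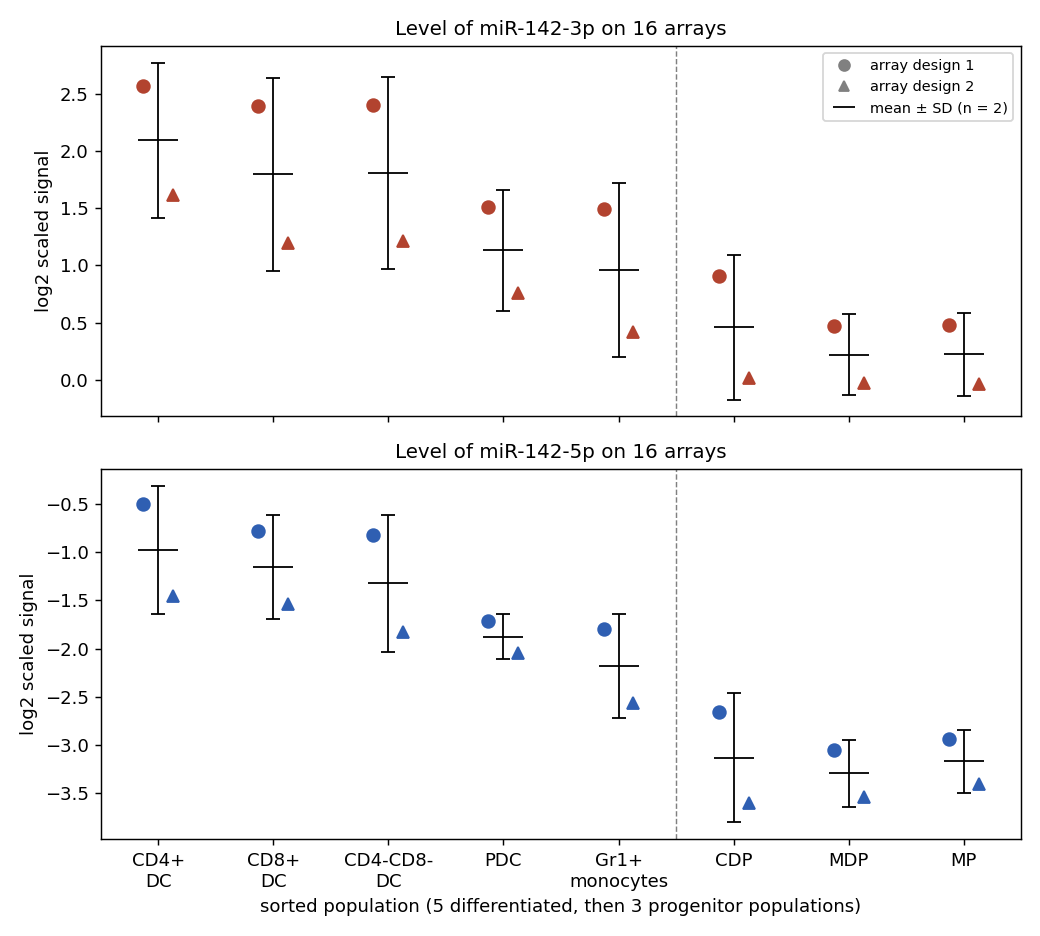
Level of miR-142-3p (top) and miR-142-5p (bottom) on each of the 16 arrays, as log2 of the scaled processed signal, with circles for design 1, triangles for design 2 and black bars for the mean ± SD of 2 replicates. Differentiated populations stand left of the dashed line and progenitors right of it, and within each design every differentiated array lies above every progenitor array.

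The levels of both arms differed among the 8 populations. The highest and lowest population means lay 1.87 apart for miR-142-3p and 2.32 apart for miR-142-5p on the log2 scale. The moderated F test of limma gave an adjusted p of 6.46e-05 for 3p and 8.14e-06 for 5p (n = 2 arrays per population), in a comparison that called 74.3% of the 175 miRNAs tested. Without the design block the 3p value no longer passed, with an adjusted p of 0.065. An exact permutation of the population labels of design 2 against design 1 (40320 arrangements) gave p = 4.96e-05 for 3p and p = 0.000397 for 5p.

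Differentiated cells held more of both arms than progenitors. miR-142-3p averaged 1.56 over the 5 differentiated populations and 0.30 over the 3 progenitor populations, a difference of 1.26 ± 0.10 (SE) on the log2 scale, or 2.39-fold (limma adjusted p = 3.47e-06, n = 10 and 6 arrays). miR-142-5p averaged -1.5 in differentiated and -3.20 in progenitor populations, a difference of 1.70 ± 0.09, or 3.25-fold (limma adjusted p = 2.86e-07). All 5 differentiated populations lay above all 3 progenitors on both designs, and the differences within design 1 and within design 2 were 1.46 and 1.06 for 3p and 1.76 and 1.64 for 5p. This comparison called 62.9% of the 175 miRNAs, 38.3% as higher, so that being called was common; the median difference over all tested miRNAs was 0.14. Ranked by their difference, 5p was 9th and 3p was 17th from the highest of 175. Taking the populations as the units, an exact permutation test (two-sided, 56 arrangements) gave p = 0.0357 for 3p and p = 0.0179 for 5p, where 0.0179 is the smallest that the design allows.

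Both arms were also higher within marrow alone, where tissue does not separate the groups. Gr1+ monocytes and PDC together exceeded the 3 marrow progenitors by 0.75 ± 0.12 for miR-142-3p (1.68-fold, limma adjusted p = 0.000632) and by 1.17 ± 0.11 for miR-142-5p (2.25-fold, limma adjusted p = 2.71e-05), in a comparison that called 50.9% of the miRNAs. Without the design block the 3p difference did not pass (adjusted p = 0.139). The array position on the slide was nested with the populations: slide row 1 held MP, MDP, CDP and CD8+ DC, and row 2 the others. The marrow comparison therefore also sets row 2 against row 1, and smaller against larger pools of mice. Within row 1, CD8+ DC exceeded the 3 progenitors by 1.5 ± 0.15 for 3p and 2.04 ± 0.14 for 5p (limma adjusted p = 2.94e-05 and 2.88e-06, 70.3% called). That comparison sets spleen against marrow, so neither comparison is free of both tissue and slide row.

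**Figure D2:**
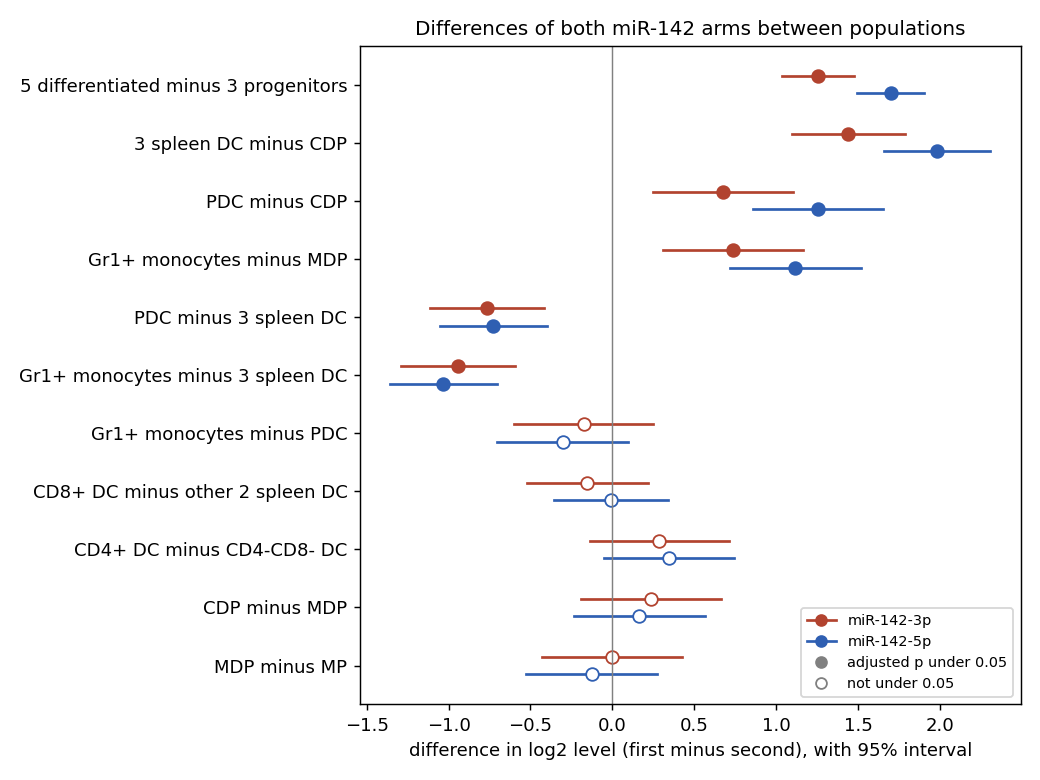
Difference in log2 level between populations (first named minus second) for both arms, with 95% intervals from the limma fit and filled points where the adjusted p was under 0.05. Both arms are higher in the differentiated populations than in progenitors, lower in PDC and monocytes than in spleen DC, and have intervals that include 0 within each of the 3 tiers.

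Along the routes out of the progenitors, both arms were higher in each differentiated population than in the progenitor it was set against. Spleen DC exceeded CDP, their marrow precursor in the usual scheme, by 1.44 ± 0.15 for miR-142-3p (2.72-fold, limma adjusted p = 3.84e-05) and 1.98 ± 0.14 for miR-142-5p (3.95-fold, limma adjusted p = 4.19e-06), with 56.6% of miRNAs called. PDC exceeded CDP by 0.68 ± 0.19 for 3p (1.60-fold, limma adjusted p = 0.0176) and by 1.26 ± 0.17 for 5p (2.39-fold, limma adjusted p = 0.000326), with 37.7% called. Gr1+ monocytes exceeded MDP by 0.74 ± 0.19 for 3p (1.67-fold, limma adjusted p = 0.012) and by 1.12 ± 0.17 for 5p (2.17-fold, limma adjusted p = 0.000887), also with 37.7% called.

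The smaller of these differences did not pass under several alternatives. Without the design block the PDC and monocyte differences did not pass for either arm: for PDC against CDP the adjusted p was 0.559 for 3p and 0.0705 for 5p, and for monocytes against MDP it was 0.447 for 3p and 0.115 for 5p. The 3p difference between PDC and CDP was 0.15 (adjusted p = 0.696) with the arrays scaled over all miRNAs instead, and it did not pass without CDP replicate 1, CDP replicate 2 or PDC replicate 2 (adjusted p = 0.0795, 0.0785 and 0.106). With the background removed by limma's normexp model instead (offset of 50) the 5p differences were 0.66 for PDC and 0.84 for monocytes (adjusted p = 0.141 and 0.0999). Those fits included monocyte replicate 1, where normexp placed the mean background at -316 units, against 6.65 to 23.3 on the other arrays. Under normexp without that array, PDC minus CDP did not lose its call for either arm, and the 5p difference between monocytes and MDP was 0.50. The spleen DC difference from CDP stayed called, at 0.73 for 3p scaled over all miRNAs and 1.26 for 5p with normexp. The 3p difference between monocytes and MDP did not pass without MDP replicate 1 or monocyte replicate 1 (adjusted p = 0.103 and 0.093).

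Among the differentiated cells, PDC and monocytes held less of both arms than spleen DC. PDC had lower miR-142-3p than the mean of the 3 spleen DC, with a difference of -0.77 ± 0.15, and lower miR-142-5p, with a difference of -0.73 ± 0.14 (limma adjusted p = 0.00329 and 0.00316, 42.9% called). Gr1+ monocytes were lower than the spleen DC too, with differences of -0.94 ± 0.15 for 3p and -1.03 ± 0.14 for 5p (limma adjusted p = 0.00113 and 0.000482, 41.1% called). Here marrow and spleen coincide with the cell types and cannot be told apart from them. Without the design block none of these 4 differences passed (adjusted p = 0.277 and 0.21 for PDC, 0.182 and 0.0699 for monocytes, 3p first). The 3p difference between PDC and spleen DC was -0.27 with quantile normalization (adjusted p = 0.125), and scaled over all miRNAs the differences were -0.57 for 3p and -0.54 for 5p (adjusted p = 0.0668 and 0.0891). With normexp the 5p differences were -0.60 for PDC and -0.32 for monocytes (adjusted p = 0.13 and 0.195). That fit included monocyte replicate 1, where normexp placed the mean background at -316 units and raised the 5p signal from 149 to 504 units. On monocyte replicate 2 the 5p signal went from 81.2 to 151 units. Under normexp without the first monocyte array, PDC minus spleen DC did not lose its call for either arm. Leaving out PDC replicate 1 gave -0.51 for 5p between PDC and spleen DC, with an adjusted p of 0.0503.

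No difference was called for either arm within a tier. Monocytes minus PDC was -0.18 for 3p (95% interval -0.60 to 0.25) and -0.30 for 5p (-0.70 to 0.09), while 41.1% of miRNAs were called. CD8+ DC minus the other 2 spleen DC was -0.15 (-0.52 to 0.22) for 3p and -0.01 (-0.35 to 0.34) for 5p, while 33.7% were called. Scaled over all miRNAs, however, CD8+ DC were lower than the other spleen DC, with differences of -0.90 for 3p and -0.75 for 5p (adjusted p = 0.0121 and 0.028). The spleen DC were therefore not level under that scaling. CD4+ DC minus CD4-CD8- DC was 0.29 (-0.14 to 0.71) for 3p and 0.35 (-0.05 to 0.74) for 5p, with 4.57% called.

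The progenitors could not be ordered by either arm. CDP minus MDP was 0.24 (-0.19 to 0.66) for 3p and 0.17 (-0.23 to 0.56) for 5p, in a comparison where limma called 0 miRNAs (0%) after adjustment and 26 at an unadjusted p under 0.05. Over the alternatives of scaling, background, probes and filters it ran from 0.18 to 0.71 for 3p and from -0.10 to 0.64 for 5p. MDP minus MP was -0.0028 (-0.43 to 0.42) for 3p and -0.13 (-0.53 to 0.27) for 5p, with 10.3% called. Some other settings turned the sign of the difference between MDP and MP, as listed in the closing section. Over all 28 pairs of populations, 20 differences were called for miR-142-3p and 21 for miR-142-5p, where 39.2% of all tested miRNAs times pairs were called. The 7 pairs called for neither arm were the 3 among progenitors, the 3 among spleen DC and PDC against monocytes. Monocytes against CDP was the 1 further pair not called for 3p (0.50, adjusted p = 0.0614), and for 5p it was called (0.95, adjusted p = 0.00251), with 40% of miRNAs called. The log2 ratio of the arms differed there by -0.45 with the processed signals (limma adjusted p = 0.0474 over 16 arm pairs, 37.5% called). Without the design block 5 pairs were called for 3p and 10 for 5p.

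The arms moved together from array to array. With each design centred on its own mean, Pearson's r between them was 0.983 over the 16 arrays (0.997 within design 1 and 0.969 within design 2), with 8 populations and a shared scaling factor behind the points. Among the 87 other miRNAs seen on every array, the partner arm had the highest r for both members. On the plot of one arm against the other, the 6 progenitor arrays lie at the lower left, PDC and monocytes near the centre and the 6 spleen DC arrays at the upper right.

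**Figure D3:**
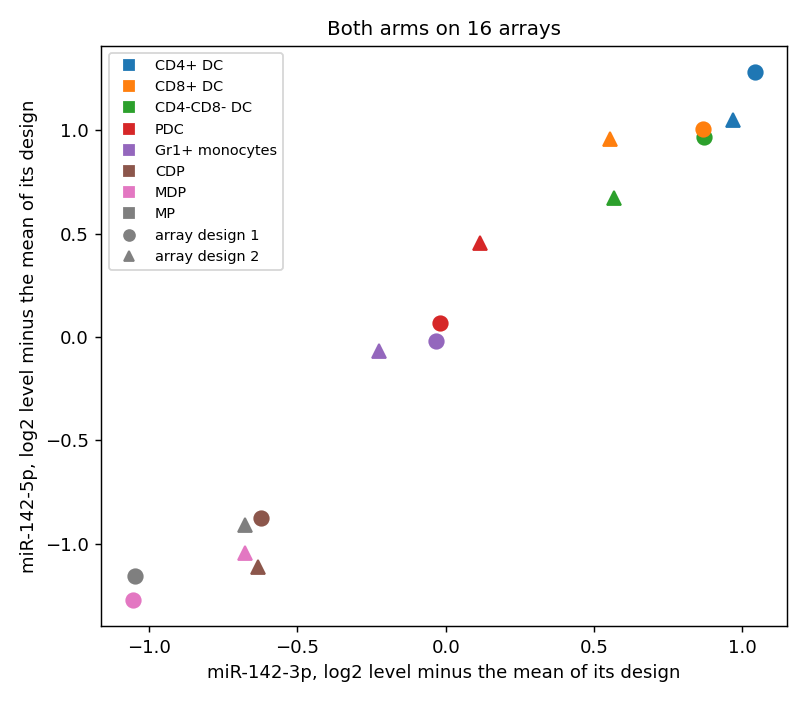
Level of miR-142-5p against miR-142-3p on 16 arrays, each as log2 scaled signal minus the mean of its array design, with colour for the population and shape for the design. The points run along 1 line (r = 0.983) from the progenitors to the spleen DC, with PDC and Gr1+ monocytes in between.

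Whether one arm rose more than the other depended on how the background was removed. With the processed signals as deposited, the log2 ratio of 3p over 5p averaged 3.06 in the 5 differentiated populations and 3.50 in the 3 progenitor populations, a difference of -0.44 ± 0.08 (limma adjusted p = 0.00064 over 16 arm pairs, 68.8% called). Only the difference is meaningful, because the probes of the arms are not calibrated to each other. It was -0.31 on design 1 and -0.58 on design 2, and on each design all 5 differentiated arrays lay below all 3 progenitor arrays. The exact permutation test over populations gave p = 0.0179, the smallest that 56 arrangements allow. The ratio also differed among the 8 populations (limma adjusted p = 0.022, 75% of arm pairs called, exact permutation p = 0.00677). The order of the populations in this ratio also changed with the background correction.

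Against CDP, the ratio differed by -0.54 ± 0.13 in the 3 spleen DC (adjusted p = 0.00433, 62.5% of arm pairs called) and by -0.58 ± 0.16 in PDC (adjusted p = 0.0104, 43.8% called). Without CDP replicate 2 these adjusted p-values were 0.0801 and 0.127, and without PDC replicate 2 that of PDC was 0.0957. The ratio in monocytes was -0.38 ± 0.16 against MDP and was not called (adjusted p = 0.103, 31.2% called). With quantile normalization the difference between PDC and CDP was -0.0063. With normexp and an offset of 50 it was -0.021, and that between spleen DC and CDP turned to 0.11 (adjusted p = 0.59). With an offset of 1 neither was called, at -0.36 for PDC and -0.30 for spleen DC (adjusted p = 0.36 and 0.286).

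With normexp and the offset of 50, the difference in ratio between differentiated and progenitor populations had the opposite sign, at 0.13 (adjusted p = 0.306, exact permutation p = 0.589). By construction that offset adds 50 units to every spot, which is of the size of the whole processed signal of miR-142-5p on the progenitor arrays (28.6 to 80.4 units). Such a constant shrinks the log2 change of the dimmer arm more, so the sign under this offset cannot show which arm gained more. On the array of monocyte replicate 1 normexp placed the mean background at -316 units, against 6.65 to 23.3 on the other 15 arrays. Without that array the difference was 0.20 with the offset of 50, to which the same limit applies. With an offset of 1 it was -0.31 over all arrays (adjusted p = 0.0753) and -0.21 without that array. The offset of 1 also left the 5p signal of the progenitor arrays above the processed one, at 42.1 to 98.1 units against 28.6 to 80.4. The limit on the dimmer arm therefore holds for the offset of 1 too, to a smaller extent. Of these background treatments, only the offset of 50 gave a positive difference. With an offset of 1 the difference over all arrays was negative but not called, so the direction is not settled by these signals. Each arm by itself was called higher in differentiated cells under both corrections. The differences were 1.16 for 3p and 1.03 for 5p with the offset of 50, and 1.20 for 3p and 1.52 for 5p with the offset of 1.

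**Figure D4:**
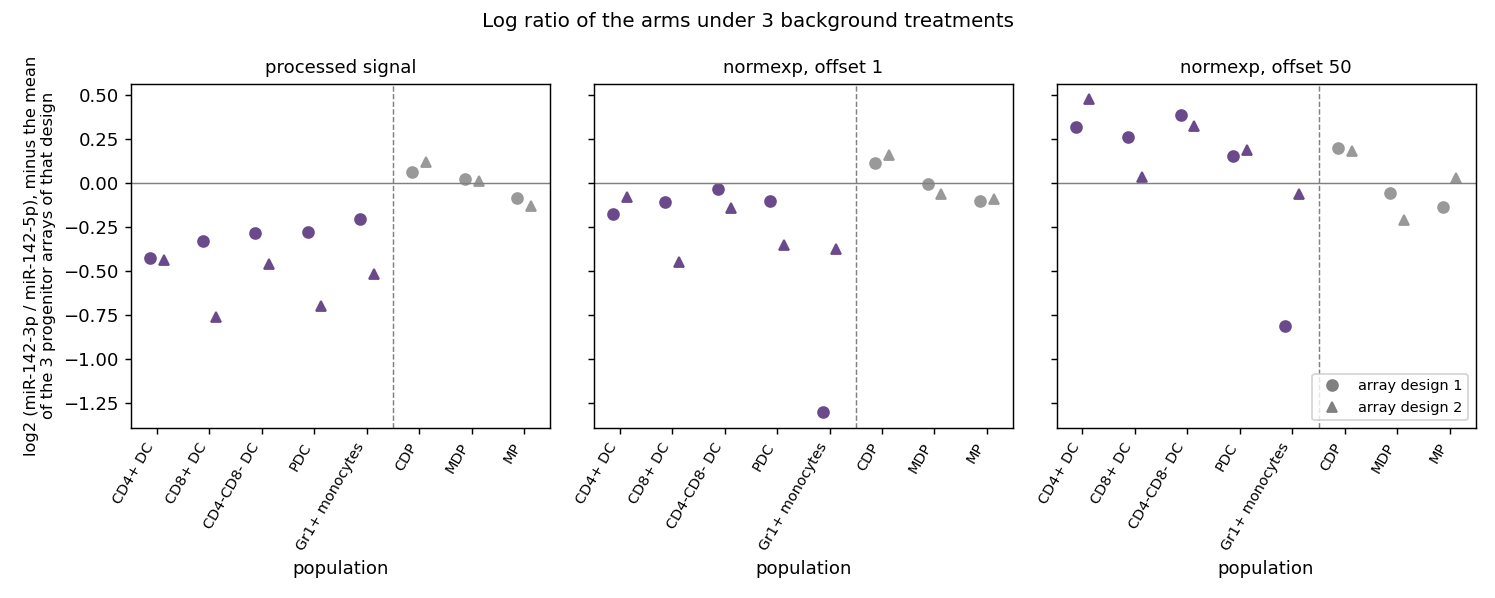
Log2 ratio of miR-142-3p over miR-142-5p on each array minus the mean of the 3 progenitor arrays of its design, with processed signals (left), normexp with an offset of 1 (middle) and normexp with an offset of 50 (right). Of the 10 differentiated arrays 10 lie below 0, the progenitor mean, on the left and in the middle, and 2 on the right. Below every progenitor array of their design lie 10 on the left, 7 in the middle and 1 on the right. Monocyte replicate 1 lies apart in both normexp panels, at -1.30 and -0.81.

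Both probes of an arm gave the same direction. With the longer probe alone, differentiated populations exceeded progenitors by 1.25 for 3p and 1.72 for 5p. With the shorter probe alone they did so by 1.29 for 3p and 1.68 for 5p.

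Of the 16 arm pairs with both arms tested, miR-142 and miR-140 were the 2 whose arms were both detected on all arrays. miR-140, over its partner arm miR-140*, differed by -0.11 ± 0.06 between differentiated and progenitor populations and was not called (adjusted p = 0.159). The 4 arm pairs that differed most by the F test over populations were miR-342, miR-18a, miR-138 and miR-17. Between differentiated and progenitor populations their log2 ratios differed by 2.98, -1.76, 0.73 and -1.16 in that order, and in each of them at least 1 arm was not detected on some arrays.

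Outside its own hairpin, miR-142 was most like miR-350, whose r was 0.959 to 3p and 0.977 to 5p over the 16 arrays. The probe of miR-350 reads miR-350-3p of RefSeq (chr1:176772342-176772363), printed with its seed in capitals to show that it differs from both miR-142 seeds.
mmu-miR-350-3p: uUCACAAAgcccauacacuuuc
For miR-142-3p the next were miR-423-5p (0.939), miR-342-3p (0.938) and miR-361 (0.920), and for miR-142-5p they were miR-342-3p (0.946), miR-15a (0.942) and miR-423-5p (0.923). miR-27b, miR-23b and miR-92a ran the other way, with r between -0.89 and -0.96 to the arms. With quantile normalization 3 of the 5 miRNAs most like 3p stayed among its 5, namely the partner arm, miR-350 and miR-342-3p. By rank correlation 3 of the 5 most like 5p did, namely the partner arm, miR-350 and miR-15a.

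The neighbours of miR-142 on chromosome 11 had lower correlations with it. Within 2 Mb of its probes, the array files place miR-301a, 644 kb away, and miR-21, an abundant miRNA of many activated and malignant cells, 1173 kb away, with its partner arm miR-21*. miR-21 was higher in differentiated than in progenitor populations by 1.03 ± 0.20 (limma adjusted p = 0.00137), and its r was 0.617 to 3p and 0.596 to 5p. miR-301a differed by 0.24 ± 0.13 and was not called (limma adjusted p = 0.123), with r of 0.430 and 0.374. miR-21* was detected on 0 arrays.

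Of 12 other miRNAs known from blood cells, 11 were tested in the same comparison: 7 were higher in differentiated than in progenitor populations, 1 was lower and 3 were not called, beside 62.9% called and 38.3% called higher over all tested miRNAs. Their median difference was 1.08, against 0.14 over all tested miRNAs. miR-146a, which damps signalling through NF-kB, was higher by 3.81 ± 0.16, miR-342-3p by 3.32 ± 0.15 and miR-150, a miRNA of mature lymphocytes, by 2.94 ± 0.29. miR-15a and miR-16, which are made from shared precursors, were higher by 1.54 ± 0.06 and 1.08 ± 0.05, beside 1.26 and 1.70 for the miR-142 arms. miR-126-3p, known from blood stem cells and endothelium, differed by -2.81 ± 0.11, lower in differentiated populations. miR-223, miR-155 and miR-181a were not called, and miR-144 was not tested because it was detected on 0 arrays.

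Some markers of other cells moved with this comparison too. The summed scaled signal of 3 lymphocyte miRNAs (miR-150, miR-181a and miR-342-3p) was 0.721 to 4.11 on the differentiated arrays (median 2.84), against 0.484 to 0.721 on the progenitor arrays (median 0.620). By themselves miR-150 and miR-342-3p were higher in differentiated populations, while miR-181a differed by -0.06 and was not called. All 3 were detected on every differentiated array, and on progenitor arrays 2 or 3 were, miR-150 being undetected in MDP. The 3 erythroid miRNAs summed to 0.0292 to 1.29 on the differentiated arrays (median 0.253), against 0.0246 to 0.536 on the progenitor arrays (median 0.0292), with 0 to 2 of them detected and miR-144 undetected throughout. By itself the erythroid miR-451, detected on 13 arrays, was higher in differentiated populations by 2.23 ± 0.56 (limma adjusted p = 0.00677, 62.9% called). Its highest mean was in CD8+ DC. The 6 miRNAs of stem and early progenitor cells summed to 0.0805 to 0.335 on the differentiated arrays, against 0.443 to 2.26 on the progenitor arrays. The 7 stromal, muscle and epithelial miRNAs were near the floor, with sums of at most 0.0421 and at most 1 detected. In Gr1+ monocytes the lymphocyte sum was 0.790 and 0.721, against 0.484 and 0.547 in MDP, 0.721 and 0.676 in CDP and 0.591 and 0.650 in MP. The part of other cell types in the difference of the miR-142 arms was not tested.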

How the data were processed

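Spot intensity was read with Agilent Feature Extraction; per the file headers the version was 10.7.3.1, while the submitters' processing notes name 9.1. The deposited processed intensity is background-subtracted and was neither logged nor scaled between arrays. Outlier spots were left out, spots of a probe and then probes of a miRNA were averaged, and signals were scaled to each array's 75th percentile, taken over 88 miRNAs seen on every array (factors 333 to 876). Detection required a share of 0.5 of a probe's spots well above background. Values were floored at -5.32 (design 1) and -5.78 (design 2) and logged, with no pseudocount. Tests covered 175 miRNAs, those detected in both replicates of some population, using R 4.3.3 and limma 3.58.1 (population means, array design as block, moderated variances), with Benjamini-Hochberg adjustment over the 175 in each comparison and a call at an adjusted p under 0.05. Arm ratios were fitted likewise over 16 arm pairs. The scripts were tested on simulated data.

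The replicate numbers pair the arrays because they mark the array design: deviations of same-numbered arrays correlated in all 28 pairs of populations (r from 0.293 to 0.916). The 16 arrays limit the precision, at 2 per population. Between 16.7% and 25.4% of the spots of an array were well above background.

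Named are both arms, for each the 5 most and 3 least alike miRNAs, neighbours within 2 Mb, a list of 12 blood cell miRNAs and the 4 arm pairs of smallest p. The members, lists and tests were chosen with earlier results of these data known. Sequences come from RefSeq and the array files, and the hairpin was folded with RNAfold 2.7.2. Alternatives covered scaling, background correction, probe choice, filters, the block and each left-out array; those with normexp at an offset of 1 or without an array of monocytes, and the comparison within slide row 1, were added after the data had been seen.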

Additional observations from a re-analysis of the deposited data

How the results depend on the processing

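The differences of both arms between differentiated and progenitor populations were called by limma under every alternative that was run, from 1.03 to 1.29 for miR-142-3p and from 0.96 to 1.72 for miR-142-5p (log2), and without 1 array each they were 1.18 to 1.33 and 1.65 to 1.75. By the exact permutation test 3p had p = 0.0536 when scaled over all miRNAs, where its difference was 1.03. That scaling moved the median of all tested miRNAs by -0.10; relative to the median the arms stood 1.00 and 1.44 higher, against 1.12 and 1.56 as reported. The alternatives with an offset of 1, those that leave out the first monocyte array under normexp, and the comparison within slide row 1 were chosen after seeing the data. Where no cause is given below, the cause was not tested.

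Replicate block: without the replicate block (array design) the calls were lost, at unchanged differences, for 3p over the 8 populations (range of means 1.87), monocytes minus MDP (0.74), PDC minus CDP (0.68), PDC minus spleen DC (-0.77), monocytes minus spleen DC (-0.94) and marrow cells minus progenitors (0.75), for 5p monocytes minus MDP (1.12), PDC minus CDP (1.26), PDC minus spleen DC (-0.73) and monocytes minus spleen DC (-1.03), and for the range of the ratio (0.64). Called pairs of populations were then 5 for 3p and 10 for 5p. The offset between the designs, 0.88 for 3p and 0.72 for 5p, enters the spread in that fit.

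MDP minus MP turned its sign without passing any threshold. For 3p it was 0.27 scaled over all miRNAs, 0.22 with quantile normalization, 0.30 scaled to the median, 0.032 scaled without the arms, 0.15 with the brightest probe, 0.050 with the longer probe, 0.0058 with outlier spots kept, and -0.22 to 0.21 without 1 array. For 5p it was 0.15 over all miRNAs, 0.15 with quantile, 0.17 with the median, 0.078 under normexp (0.078 also without the monocyte array), 0.026 with the brightest probe, and -0.27 to 0.016 without 1 array. CDP minus MDP of 5p was -0.10 under normexp with an offset of 50, with and without that array.

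Monocytes minus MDP lost its call for 3p scaled over all miRNAs (0.71), under normexp (0.53 and, without the monocyte array, 0.58; 0.56 and 0.62 with an offset of 1), with no detection filter (0.74) and in part without 1 array (0.52 to 0.96), and for 5p under normexp (0.84 and 0.50). PDC minus CDP lost its call for 3p over all miRNAs (0.15), with the median (0.34), under normexp (0.64, and 0.67 with an offset of 1), with the brightest probe (0.57), with no detection filter (0.68) and in part without 1 array (0.60 to 0.75), and for 5p over all miRNAs (0.73) and under normexp (0.66). The normexp losses of PDC minus CDP, at either offset, occurred only with the first monocyte array included.

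PDC minus spleen DC lost its call for 3p over all miRNAs (-0.57), with quantile (-0.27) and with an offset of 1 (-0.75), and for 5p over all miRNAs (-0.54), under normexp (-0.60), with an offset of 1 (-0.69) and in part without 1 array (-0.95 to -0.51). The losses of PDC minus spleen DC under normexp, at either offset, occurred only with the first monocyte array included. Monocytes minus spleen DC lost its call for 5p under normexp (-0.32) and with an offset of 1 (-0.42), both with that array included. CD8+ DC minus the other spleen DC was called lower over all miRNAs (-0.90 for 3p, -0.75 for 5p). For 5p it turned to 0.037 under normexp, with and without the monocyte array, to 0.0081 with an offset of 1, likewise, and to 0.0975 with the shorter probe, and without 1 array it was -0.33 to 0.025 for 3p and -0.092 to 0.076 for 5p. Monocytes minus PDC turned to 0.093 for 3p with the median and to 0.031 for 5p with quantile. For 5p it also turned to 0.28 under normexp and 0.27 with an offset of 1, both only with the first monocyte array included. Called pairs of 5p were 10 under normexp with that array included.

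The ratio of the arms between differentiated and progenitor populations turned to 0.13 under normexp with an offset of 50 and to 0.20 without the monocyte array, and with an offset of 1 it was -0.31, not called, and -0.21 without that array (exact permutation p = 0.0536). Spleen DC minus CDP was 0.11 under normexp in both versions, -0.30 with an offset of 1 and -0.67 to -0.41 without 1 array. PDC minus CDP was -0.021 under normexp in both versions, -0.36 with an offset of 1, -0.0063 with quantile and -0.72 to -0.44 without 1 array. Monocytes minus MDP was called with quantile (-0.59) and over pairs detected on all arrays (-0.38), and was 0.079 under normexp without the monocyte array. The range of the ratio lost its call with the shorter probe (0.57), with an offset of 1 (0.97, and 0.47 without that array) and in part without 1 array (0.57 to 0.79).

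Of the miRNAs most like an arm, with the partner arm counted, 3 of 5 were shared with quantile normalization for 3p and with rank correlation for 5p. Counts of called miRNAs moved over 1.5 times in most comparisons: 110 for differentiated minus progenitor populations (of 175 tested) became 56 (of 175) under normexp and 508 with no detection filter, where all 604 miRNAs were tested, and for the F test 130 became 51 with an offset of 1. For spleen DC minus CDP 99 became 42 and 497, for PDC minus spleen DC 75 became 14 and 476, and for monocytes minus spleen DC 72 became 34 and 471, the higher counts again out of 604. For monocytes minus MDP 66 became 11, for PDC minus CDP 66 became 31, for marrow cells minus progenitors 89 became 37, for CD8+ DC minus the other spleen DC 59 became 1, for monocytes minus PDC 72 became 38, for MDP minus MP 18 became 0, for CD4+ DC minus CD4-CD8- DC 8 became 0 and for CDP minus MDP 0 became 5. For CDP minus MDP, limma gave 26 miRNAs at an unadjusted p under 0.05.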
